A study of Homo sapiens with 6 samples.

Results

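ATF4 is a transcription factor of the integrated stress response, and the genes described here are 40 genes of its amino acid programme. They are the genes listed as stress factors and regulators (10), enzymes of amino acid and one-carbon synthesis (10), amino acid transporters (8) and aminoacyl-tRNA synthetases (12), taken by gene symbol from the 15284 genes that both deposited tables share. All 40 were found. A filter on low counts kept 39 of them among 12678 tested genes. The gene left out was CBS, the enzyme that joins homocysteine and serine, with 1 read in all, in a WT library.

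The libraries came from a human line of colorectal carcinoma, HCT116, and the study asked what loss of MUC3A, a membrane-bound mucin, does to them. KO1 and KO2 are HCT116 cells that received a lentiCRISPR v2 virus with 1 of 2 MUC3A guides at a multiplicity of infection of 10 and then 72 h of puromycin (2 µg/mL). The labels give the WT group the genotype wild type and the treatment negative control. A scrambled virus is part of the protocol, so it was not settled whether WT cells were infected and selected. Each group has 2 libraries, 1 with a name that begins with HCT (the HCT set) and 1 with a name that begins with HCT116 (the HCT116 set). The labels do not say what these names mark, nor that libraries came from separate cultures or that the knockouts are single clones. The spread behind the p-values is thus that of the libraries alone and may be technical.

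When amino acids are scarce or the endoplasmic reticulum is stressed, kinases phosphorylate the initiation factor eIF2. General translation then slows while translation of ATF4 messenger RNA rises, so the ATF4 transcript is only part of the readout. ATF4, often paired with a C/EBP protein, turns on genes that make, import and charge amino acids, and also TRIB3, DDIT3 and CHAC1, which feed back on the response or act in cell death. Growth signalling through mTORC1 raises ATF4 as well, and tumour cells use the programme to feed protein synthesis.

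The letters that C/EBP-ATF pairs are known to bind were looked for in promoters from RefSeq (GRCh38.p14, from 250 bases before to 50 bases after each listed start). The motif searched was TGATGNAA, which reads TTNCATCA on the other strand, on both strands, and no other motif was searched. Of the 40 genes, 33 had a promoter in the table, and 15 of these (45.5%) held the motif, against 284 of 10300 tested genes (2.76%) and 1270 of 35116 promoters (3.62%). By role, the motif was present in 7 of 10 synthetases, 4 of 7 transporters, 3 of 9 stress factors and 1 of 7 synthesis enzymes. These matches are descriptions of letters and not of binding, and such genes are known as ATF4 targets partly through such letters.

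The motifs of 8 genes are shown because they span the 4 roles and the spellings found, 5′ to 3′ on the gene's own strand, with the motif in capitals. CHAC1 lies on the plus strand (chr15:40953251-40953280), ASNS on the minus strand (chr7:97872458-97872487) and SLC1A5 on the minus strand (chr19:46784893-46784922). SLC3A2 lies on the plus strand (chr11:62881725-62881748) and AARS on the minus strand (chr16:70289675-70289704). MARS (chr12:57488053-57488082), TARS (chr5:33440956-33440985) and GARS (chr7:30594834-30594863) lie on the plus strand.
CHAC1: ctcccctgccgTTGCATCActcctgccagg
ASNS: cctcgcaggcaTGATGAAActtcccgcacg
SLC1A5: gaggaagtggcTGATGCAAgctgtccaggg
SLC3A2: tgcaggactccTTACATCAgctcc
AARS: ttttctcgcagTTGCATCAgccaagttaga
MARS: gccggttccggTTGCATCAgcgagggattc
TARS: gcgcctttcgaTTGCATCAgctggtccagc
GARS: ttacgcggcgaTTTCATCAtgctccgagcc
The spelling TTGCATCA, as in CHAC1, AARS, MARS and TARS, was the most frequent, in 7 of the 15 genes. Its other-strand form TGATGCAA, as in SLC1A5, was in 4. TGATGAAA, as in ASNS, was in 2, and TTACATCA (SLC3A2) and TTTCATCA (GARS) were in 1 each. The motif of CHAC1 began at position −209 and that of ASNS at −68, where the start base counts as 0. The letters were not found in this window of TRIB3, EPRS, SLC7A5, ATF4 or DDIT3.

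Total counts ran from 13638724 to 17830282 per library. MUC3A was at 52.7 and 25.1 CPM (reads scaled to TMM-adjusted library sizes) in the HCT and HCT116 libraries of WT, while KO1 had 52.9 and 28.6 and KO2 had 30.04 and 24.6. Within sets, MUC3A in KO1 was not below WT (0.08 ± 0.18, log2, SE, n = 2, edgeR adjusted p 0.962). In KO2 it was below WT in both sets and was not called (−0.43 ± 0.19, edgeR adjusted p 0.237). Mitochondrial transcripts took 6.95% and 8.90% of counts in KO2 and 4.20% to 5.94% in the other libraries. Of 10 colorectal epithelial markers, 8 were in the files, with summed levels of 5271 to 15044 CPM and EPCAM at 219 to 289, while CEACAM6 and VIL1 were at or near 0. Fibroblast markers (4 of 6) summed to 35.4 to 67.5 CPM, nearly all COL1A1 with DCN at or near 0. Leukocyte markers (5 of 6) summed to 5.65 to 20.8 CPM, nearly all CD68 with PTPRC at or near 0, and endothelial markers (4 of 4) to 0.865 to 4.62 CPM. CD68 was at 7.55 and 8.495 CPM in WT and 19.03 and 17.5 in KO1, not called (edgeR adjusted p 0.106). The epithelial sum was higher in KO1 than in WT in both sets, at 8746 and 15044 against 6351 and 8373 CPM. It is mostly KRT8, KRT18 and KRT19, with KRT8 at 4282 and 8139 CPM in KO1 against 3162 and 4307 in WT. These keratins and CDH1 were higher in both sets, CDX2 was lower in both, and the direction of EPCAM differed between the sets. Of the 6 epithelial markers tested, 0 were called in KO1 by edgeR. The part of CD68 or of the epithelial sum in the KO1 values below was not tested.

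In cells with the first guide, TRIB3 fell, and it was the 1 gene of 39 past the threshold. TRIB3 encodes a pseudokinase that binds Akt and ATF4 and is one of the classic ATF4 targets. ATF4 itself and the genes for making, importing and charging amino acids did not pass the test, which does not show equal levels. ASNS, PHGDH, PYCR1 and SLC1A5 were lower at an unadjusted p under 0.05 only. The test was edgeR's quasi-likelihood test with the set as a block and adjustment over all 12678 genes. It called 1 of 39 members (2.56%), against a background of 1.03% of all tested genes. The 1 call was lower and 0 were higher, where 0.347% and 0.678% of all tested genes were. At an unadjusted p under 0.05 there were 5 members, all lower, where 8.85% of all tested genes passed, and DESeq2 and limma-voom with the same block also called 1 member.

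TRIB3 had 571 and 1043 reads in the HCT and HCT116 libraries of WT and 309 and 588 in KO1, or 37.2 and 82.0 CPM against 20.7 and 45.4. KO1 was below WT in both sets, by a log2 ratio of −0.84 in the HCT set (95% exact interval from counting error only, −1.05 to −0.64) and −0.85 in the HCT116 set (−1.0005 to −0.71). The fitted change was −0.85 ± 0.16 (log2, SE, n = 2 libraries per group), a 1.80-fold lower level, with an edgeR adjusted p of 0.0277. Across the sets the groups overlap, since the HCT116 library of KO1 lay above the HCT library of WT. The TRIB3 call was lost without the HCT116 library of WT (−0.70, adjusted p 0.340), the HCT library of KO1 (−0.74, adjusted p 0.323) or the HCT116 library of KO1 (−0.99, adjusted p 0.0615), by edgeR.

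The other 9 stress factors were not called with this guide. ATF4 was at 282 and 565 CPM in WT and 269 and 527 in KO1, in the order HCT, HCT116. Its change was −0.09 ± 0.14 on the log2 scale (SE, n = 2), with a 95% interval of −0.39 to 0.22. DDIT3, the pro-apoptotic factor CHOP, was at 5.92 and 5.03 CPM in WT and 4.82 and 6.34 in KO1, so its direction differed between the sets. CHAC1, an enzyme that degrades glutathione, was at 3.64 and 13.4 CPM in WT and 3.35 and 8.66 in KO1. Its change of −0.42 ± 0.25 (SE, n = 2) had an edgeR adjusted p of 0.723. The HCT116 set gave most of it, with a ratio of −0.63 against −0.12 in the HCT set.

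Of 9 tested synthesis enzymes 0 were called, and 3 (ASNS, PHGDH and PYCR1) were lower at an unadjusted p under 0.05. ASNS, asparagine synthetase, was at 108 CPM in the HCT library of WT and 106 in that of KO1. In the HCT116 set it was at 187 CPM in WT and 111 in KO1. The log2 ratio was thus −0.03 in one set and −0.75 in the other, and the fitted change of −0.41 ± 0.18 (SE, n = 2) had an edgeR adjusted p of 0.514. PHGDH, which opens serine synthesis from glycolysis, was at 137 and 347 CPM in WT and 122 and 210 in KO1, with ratios of −0.17 and −0.73. ALDH18A1, which starts proline synthesis, was at 137 and 145 CPM in WT and 132 and 135 in KO1.

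Of 8 transporters 0 were called, and 1 (SLC1A5) was lower at an unadjusted p under 0.05. SLC1A5, the glutamine transporter ASCT2, was at 273 and 610 CPM in WT and 224 and 436 in KO1. Its change was −0.39 ± 0.14 (log2, SE, n = 2) with an edgeR adjusted p of 0.357. SLC7A5 was at 537 and 1434 CPM in WT and 505 and 1110.1 in KO1, a difference of −0.24 ± 0.17 with an edgeR adjusted p of 0.810. Of the 12 synthetases 0 were called and 0 had an unadjusted p under 0.05 by edgeR. The synthetase with the smallest p was YARS, which charges tyrosine, at 146 and 323 CPM in WT and 144 and 234 in KO1.

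The median log2 change of the 39 genes with the first guide was −0.09, beside 0.00 over all tested genes. By role it was −0.09 in stress factors, −0.08 in synthesis, −0.22 in transport and −0.08 in synthetases. In both sets alike 22 of 39 genes were below WT, where 30.1% of all tested genes were, and 8 above, where 3936 of 12678 were.

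**Figure D1:**
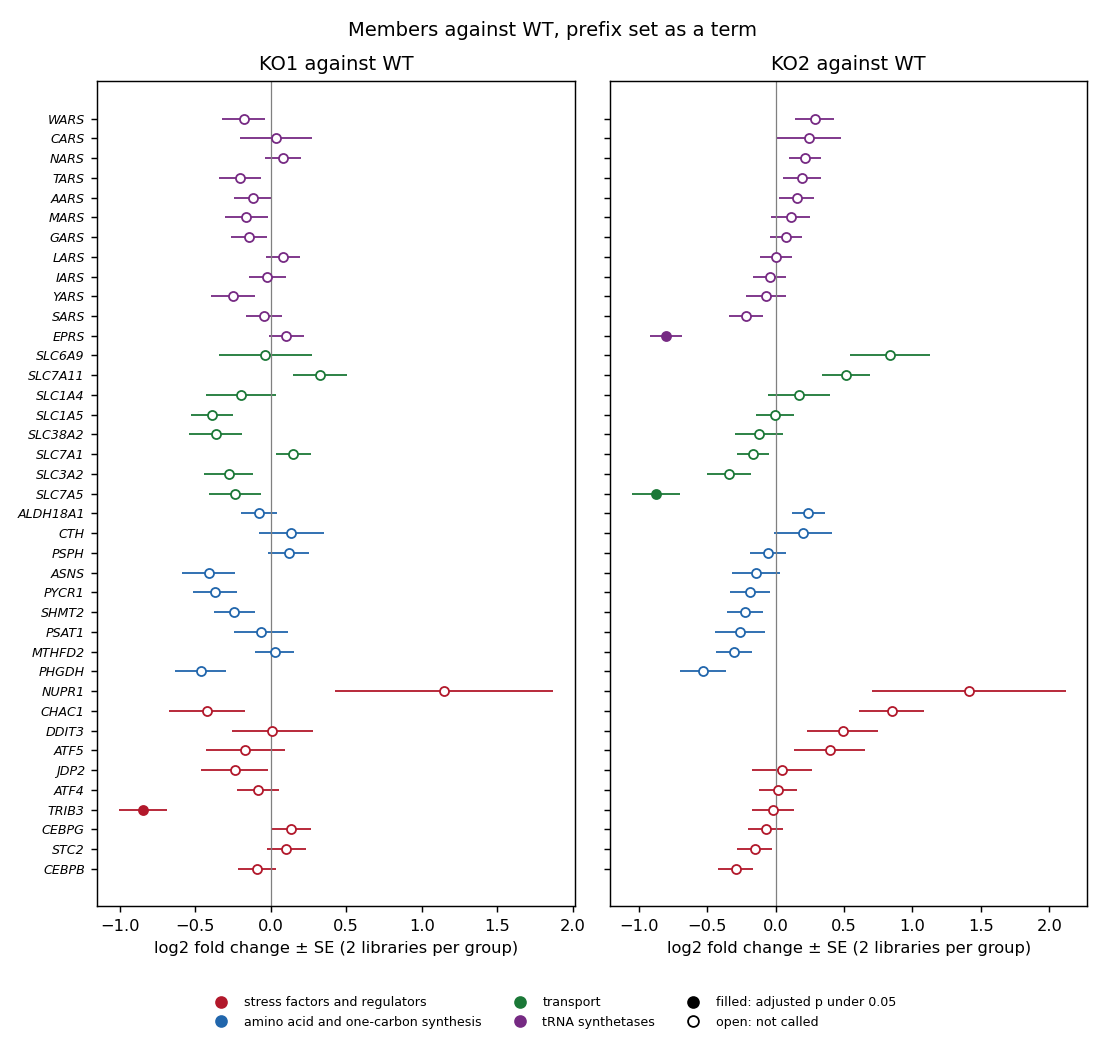
Log2 fold change (± SE, 2 libraries per group, edgeR with the set as a term) of the 39 tested genes in KO1 (left) and KO2 (right) against the same WT libraries, coloured by role, filled where the adjusted p was under 0.05. TRIB3 is the only filled point on the left at −0.85, and EPRS (−0.80) and SLC7A5 (−0.88) are the only ones on the right.

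In cells with the second guide, EPRS and SLC7A5 fell, and they were the 2 genes of 39 past the threshold. EPRS charges glutamate and proline to their tRNAs and sits in the multisynthetase complex. SLC7A5 imports leucine and other large amino acids. edgeR with the block called 2 of 39 members (5.13%), against a background of 4.61% of all tested genes, so the share is near the background. Both calls were lower and 0 were higher, where 2.47% and 2.15% of all tested genes were. At an unadjusted p under 0.05 there were 8 members, 3 higher and 5 lower, where 19.4% of all tested genes passed. KO1 and KO2 were compared with the same WT libraries, and their values are given side by side only.

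EPRS had 4172 and 2780 reads in the HCT and HCT116 libraries of WT, while KO1 had 4317 and 3065 and KO2 had 2946 and 1838. These are 272 and 219 CPM for WT, 289 and 237 for KO1, and 154 and 127 for KO2. Both KO2 libraries lay below all 4 others. The KO2 ratios of the sets were alike, at −0.82 (HCT) and −0.78 (HCT116). The fitted change was −0.80 ± 0.12 (log2, SE, n = 2), 1.74-fold lower, with an edgeR adjusted p of 0.00319. Leaving out any 1 library kept the EPRS call, with changes of −0.82 to −0.79. Where a WT or KO2 library is left out, the lone library of its group is assumed to vary like those of the other groups, here and below.

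SLC7A5 had 8253 and 18227 reads in WT, while KO1 had 7543 and 14363 and KO2 had 7326 and 8562. In KO2 this is 383 and 592 CPM against 537 and 1434 in WT. KO2 was lower in both sets, by −0.49 (HCT) and −1.28 (HCT116). The fitted change was −0.88 ± 0.17 (log2, SE, n = 2), 1.84-fold lower, with an edgeR adjusted p of 0.0172. Across the sets the groups overlap, as 592 CPM in KO2 is above 537 in WT. Without the HCT116 library of WT the SLC7A5 call was lost (−0.60, edgeR adjusted p 0.152), and without the HCT116 library of KO2 the change was −0.56 and still called. SLC3A2, its partner chain, was at 166 and 363 CPM in KO2 against 164 and 594 in WT, a difference of −0.34 ± 0.16 with an edgeR adjusted p of 0.279.

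**Figure D2:**
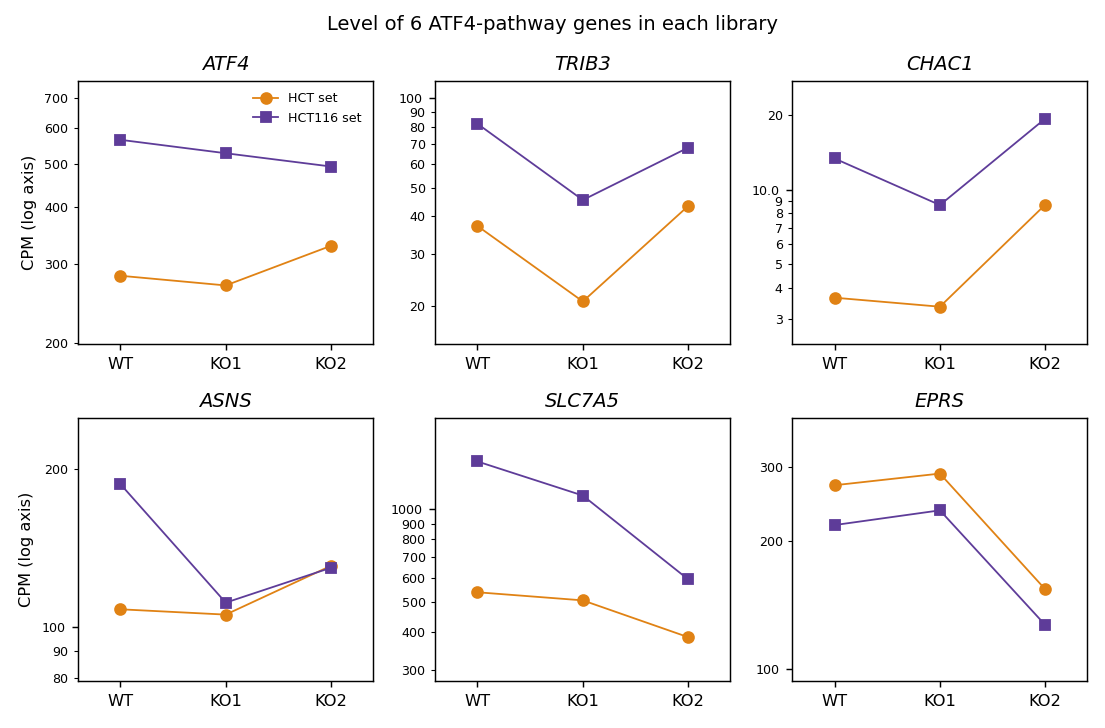
CPM on a log axis of 6 genes in WT, KO1 and KO2, with 1 point per library, orange circles for the HCT set and purple squares for the HCT116 set, joined by lines within a set. TRIB3 is lowest in KO1 and EPRS in KO2 in both sets, while ASNS is at 187 CPM in WT and 111 in KO1 in the HCT116 set and at 108 and 106 in the HCT set.

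Many genes in the region around SLC7A5 were also lower in KO2. Among the 31 tested genes centred on SLC7A5 in gene order on chromosome 16, the median log2 change was −0.46, 27 were negative and 11, SLC7A5 included, were called lower, with 0 called higher. The genes on either side, KLHDC4 (−0.27) and BANP (−0.19), were not called. Among called genes farther along, MVD, a cholesterol synthesis enzyme, was at −0.85, APRT, an adenine salvage enzyme, at −1.04, and PIEZO1, a stretch-activated channel, at −1.22. In KO1 the median of the same window was −0.08 and 0 genes were called. The part of this regional shift in the SLC7A5 value was not tested. Around EPRS on chromosome 1 the window median was −0.01, and EPRS was the only gene called lower, with LYPLAL1 at −0.08 and BPNT1 at 0.20 on either side. AARS, also on chromosome 16, lay in a window with a median of 0.37 in KO2, and its own value of 0.15 ± 0.13 (SE, n = 2) was not called. Around CHAC1 on chromosome 15 the window median was 0.02 in KO2, with C15orf62 (2.25) called higher and ITPKA (−0.81) called lower. On either side of CHAC1, DLL4 (0.66) and INO80 (0.05) were not called. In KO2 against KO1 that window had a median of −0.02, with 5 genes, CHAC1 included, called higher and 1 lower. The part of these neighbours in the CHAC1 value was not tested. Around TRIB3, at the end of chromosome 20, the window of 20 genes had a median of −0.11 in KO1, and 14 were negative. TRIB3 was the 1 gene called lower there. Its neighbours on either side, NRSN2 (−1.09, edgeR adjusted p 0.710) and RBCK1 (−0.23, edgeR adjusted p 0.663), were not called.

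**Figure D3:**
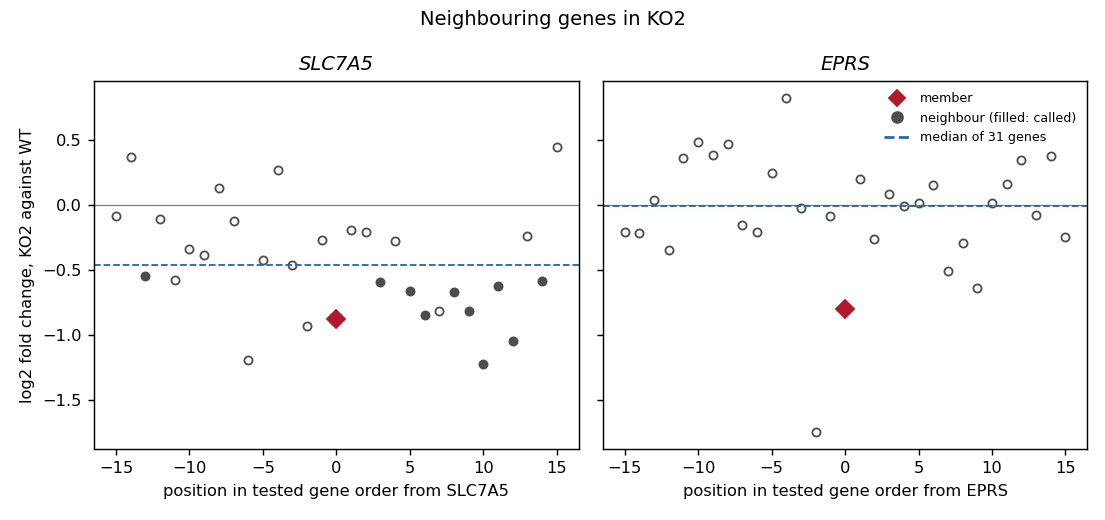
Log2 fold change in KO2 against WT (vertical axis) of the 31 tested genes centred on SLC7A5 (left) and EPRS (right), by position in gene order (horizontal axis), with the gene as a red diamond, called neighbours filled and the window median as a dashed line. The SLC7A5 window lies mostly under 0 (median −0.46), and the EPRS window lies around 0 (median −0.01).

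Among the stress factors in KO2, 0 of 10 were called and 2 had an unadjusted p under 0.05, CHAC1 higher and CEBPB, the C/EBP beta factor, lower. CHAC1 had 166 and 281 reads in KO2 and 56 and 170 in WT, or 8.69 and 19.4 CPM against 3.64 and 13.4. KO2 was above WT in both sets, with ratios of 1.25 and 0.54, and the fitted change of 0.85 ± 0.24 (log2, SE, n = 2) missed the threshold with an edgeR adjusted p of 0.0705. With no count filter it passed (adjusted p 0.0220), as it did without the HCT116 library of KO1 (adjusted p 0.0433) or of KO2 (adjusted p 0.00351), by edgeR. It did not pass with DESeq2 (adjusted p 0.117) or limma-voom (adjusted p 0.103). Without the HCT library of WT the change was 0.58 (edgeR adjusted p 0.471). DDIT3 was at 7.38 and 8.15 CPM in KO2, above WT in both sets, with a difference of 0.49 ± 0.26 and an edgeR adjusted p of 0.333. ATF4 was at 329 and 493 CPM in KO2, above WT in the HCT set and below it in the HCT116 set, and the fitted difference was 0.02 ± 0.14 with a 95% interval of −0.29 to 0.32. TRIB3 was at 43.4 and 68.2 CPM in KO2, again on opposite sides of WT in the 2 sets. NUPR1 had 1 and 12 reads in WT, while KO1 had 5 and 24 and KO2 had 16 and 20, too few for a fold change to be given here.

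Of the 9 synthesis enzymes 0 were called in KO2 by edgeR, and 2 (PHGDH and MTHFD2, a mitochondrial folate enzyme) were lower at an unadjusted p under 0.05. PHGDH was at 126 and 184 CPM in KO2 against 137 and 347 in WT, and its change of −0.53 ± 0.17 (SE, n = 2) had an edgeR adjusted p of 0.109. ASNS was at 131 and 129.8 CPM in KO2, above WT in the HCT set (0.28) and below it in the HCT116 set (−0.53). ALDH18A1 was at 177 and 156 CPM in KO2, with a difference of 0.24 ± 0.12 and an edgeR adjusted p of 0.313. Of the other transporters, SLC7A11, the cystine importer, and SLC6A9 were higher at an unadjusted p under 0.05 but not after adjustment. SLC7A11 was at 29.2 and 28.1 CPM in KO2 against 17.77 and 22.8 in WT. SLC6A9 was at 10.9 and 12.2 CPM against 4.82 and 8.97. Both genes were above WT in both sets, as 30.1% of all tested genes were. SLC1A5 was at 322 and 514 CPM in KO2, on either side of WT. Of the 11 synthetases other than EPRS, YARS was at 171 and 252 CPM in KO2 and WARS, which charges tryptophan, at 127 and 157 against 88.7 and 152 in WT.

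The 2 sets of libraries gave different pictures of the ATF4 genes in KO2. The HCT set had 29 of 39 genes above WT and the HCT116 set 13 of 39, where 49.0% and 51.8% of all tested genes were above. Over the 39 genes the HCT set had a median log2 ratio of 0.22 and the HCT116 set one of −0.15, beside −0.01 and 0.02 over all tested genes. The synthesis enzymes had medians of 0.09 and −0.46, the transporters 0.13 and −0.11, the synthetases 0.25 and −0.01, and the stress factors 0.27 and −0.18. PSAT1, which follows PHGDH in serine synthesis, was at 0.14 (HCT) and −0.69 (HCT116). SLC38A2 went the other way, at −0.54 and 0.29. In both sets alike 12 genes were above WT and 9 below, where 30.1% and 29.4% of all tested genes were. In KO1 the sets were nearer each other, with 14 and 11 of 39 genes above WT (50.5% and 50.4% of all tested genes) and medians of −0.06 and −0.15. In KO2, 11 of 39 genes were on opposite sides of WT in the sets, beyond counting error in each, where 10.7% of all tested genes were. That rule is easier to meet for genes with more reads. Each of these values compares 1 library with 1 library, and whether the sets differ in the effect of a guide was not tested.

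**Figure D4:**
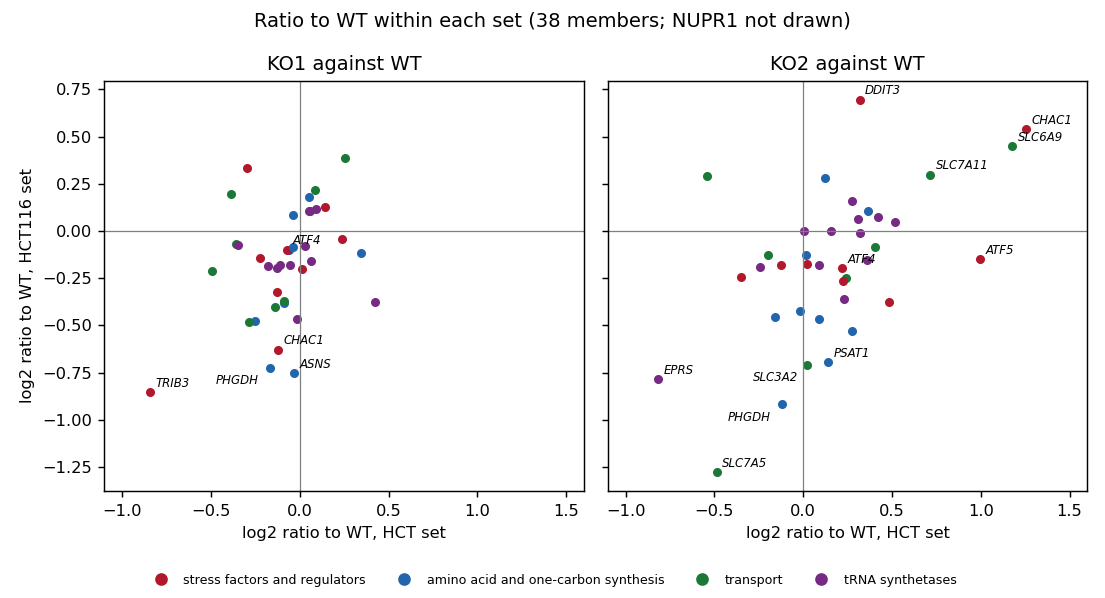
Log2 ratio to WT in the HCT set (horizontal axis) and the HCT116 set (vertical axis) of 38 tested genes in KO1 (left) and KO2 (right), coloured by role, with NUPR1 left out for its low reads and 1 library behind each value. In KO2 many points lie to the right of 0 and below 0, as PSAT1 does at 0.14 and −0.69, while EPRS and SLC7A5 are below 0 in both sets.

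With the levels of all 40 genes summed, the HCT set had 6024 CPM in WT, 5535 in KO1 and 5902 in KO2. The HCT116 set had 9090 CPM in WT, 7583 in KO1 and 7004 in KO2. Transporters of the HCT116 set summed to 3174 CPM in WT, 2507 in KO1 and 2088 in KO2. Synthesis enzymes summed to 2301, 1783 and 1650.2 CPM there, synthetases to 2594, 2374 and 2371, and stress factors to 1021, 919 and 896. In WT, KO1 and KO2 of the HCT set, transporters summed to 2060, 1710 and 1675 CPM and synthesis enzymes to 1231, 1147 and 1294. Synthetases summed to 2147.5, 2103 and 2304 CPM in that set, and stress factors to 585, 574 and 629. Of the transporters, SLC7A5 alone was at 1434 CPM in WT and 592 in KO2 of the HCT116 set.

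KO2 compared directly with KO1 called 4 of 39 members (10.3%), against 9.62% of all tested genes, by edgeR with the block. TRIB3 and CHAC1 were higher in KO2, where 4.24% of all tested genes were, and EPRS and SLC7A5 were lower, where 5.39% were. At an unadjusted p under 0.05 there were 11 members, where 25.0% of all tested genes passed. TRIB3 differed by 0.83 ± 0.16 (log2, SE, n = 2), 1.77-fold, with an edgeR adjusted p of 0.00748. CHAC1 differed by 1.27 ± 0.24, 2.42-fold, with an edgeR adjusted p of 0.00755, and was higher in KO2 in both sets. EPRS differed by −0.90 ± 0.12, 1.87-fold, with an edgeR adjusted p of 0.000613. SLC7A5 differed by −0.64 ± 0.17, 1.56-fold, with an edgeR adjusted p of 0.0406. Without the HCT library of KO1 only the EPRS call was kept, and the edgeR adjusted p was 0.159 for TRIB3, 0.0513 for CHAC1 and 0.219 for SLC7A5. SLC7A5 was also lost without the HCT116 library of KO1 (adjusted p 0.201) or of KO2 (−0.31, adjusted p 0.150), and was at −0.98 without the HCT library of KO2, by edgeR. The median difference of the 39 genes was 0.18, beside 0.00 over all tested genes, with 0.28 in stress factors, 0.02 in synthesis, 0.22 in transport and 0.19 in synthetases. In both sets alike 16 members were higher in KO2 and 10 lower, where 32.5% and 33.0% of all tested genes were.

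All of these calls need the set as a term. Without the set as a block edgeR called 0 of 39 members and 0 genes in each of the 3 comparisons. At an unadjusted p under 0.05, that fit gave 0 members in KO1 against WT, 1 (EPRS) in KO2 against WT and 1 (EPRS) in KO2 against KO1. The fitted change of TRIB3 in KO1 was −0.85 in that fit too. The authors' deposited table gives no member an adjusted p under 0.05. Its log2 fold changes in KO2 include −1.07 for SLC7A5 and −0.85 for EPRS.

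The larger difference lay between the sets. In the HCT116 libraries 23 of 39 members were higher and 6 lower than in the HCT libraries, 74.4% of the members, against 63.9% of all tested genes (31.8% higher and 32.1% lower), by edgeR with the group as a term. The median of the 39 genes was 0.43 on the log2 scale, beside −0.02 over all tested genes, with 0.87 in stress factors, 0.33 in synthesis, 0.67 in transport and 0.15 in synthetases. All 3 HCT116 libraries were above all 3 HCT libraries for 20 members and below them for 5, where 30.7% and 30.2% of all tested genes were. What the set stands for (culture, time, cell stock or library preparation) cannot be told apart here.

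Among stress factors, ATF5, a factor related to ATF4, was at 6.23 to 14.6 CPM in the HCT set and 41.9 to 46.4 in the HCT116 set. It was 4.84-fold higher there (2.27 ± 0.22, log2, SE, 3 libraries per set), with an edgeR adjusted p of 1.05e-05. NUPR1 was called higher too, on reads of 1 to 24, too few for a size to be given. STC2, a secreted glycoprotein, was lower by −0.41 ± 0.10 on the log2 scale. ATF4 was at 269 to 329 CPM in the HCT set and 493 to 565 in the HCT116 set, a difference of 0.85 ± 0.11 with an edgeR adjusted p of 6.6e-05. TRIB3 (0.97 ± 0.13) and CHAC1 (1.44 ± 0.20) were called higher too, while DDIT3 (0.10 ± 0.21) and CEBPG, a C/EBP partner of ATF4 (0.04 ± 0.11), were not called.

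Among synthesis enzymes, PYCR1 was at 234 to 296 CPM in the HCT set and 488 to 679 in the HCT116 set (1.03 ± 0.12), and PHGDH at 122 to 137 and 184 to 347 CPM (0.89 ± 0.14). CTH, which makes cysteine from cystathionine, was the 1 lower enzyme (−0.49 ± 0.17), and ASNS (0.29 ± 0.14) and ALDH18A1 (−0.02 ± 0.10) were not called. Among transporters, SLC3A2 was at 149 to 166 CPM in the HCT set and 363 to 594 in the HCT116 set, 2.88-fold higher (1.53 ± 0.13, SE, 3 libraries per set) with an edgeR adjusted p of 7.24e-06. SLC7A5 was also higher (1.06 ± 0.14). SLC38A2, at 621 to 905 CPM in the HCT set and 325 to 460.3 in the HCT116 set, was lower (−0.89 ± 0.15), as was SLC7A1, the arginine and lysine transporter (−0.32 ± 0.10). Among synthetases, YARS (0.80 ± 0.12) and MARS (0.68 ± 0.12) were higher, LARS (−0.53 ± 0.09) and EPRS (−0.29 ± 0.09) were lower, and 5 of 12, CARS, GARS, IARS, NARS and TARS, were not called. MARS and DDIT3 overlap on opposite strands, and whether counting used strand is not given, so their reads may be shared.

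**Figure D5:**
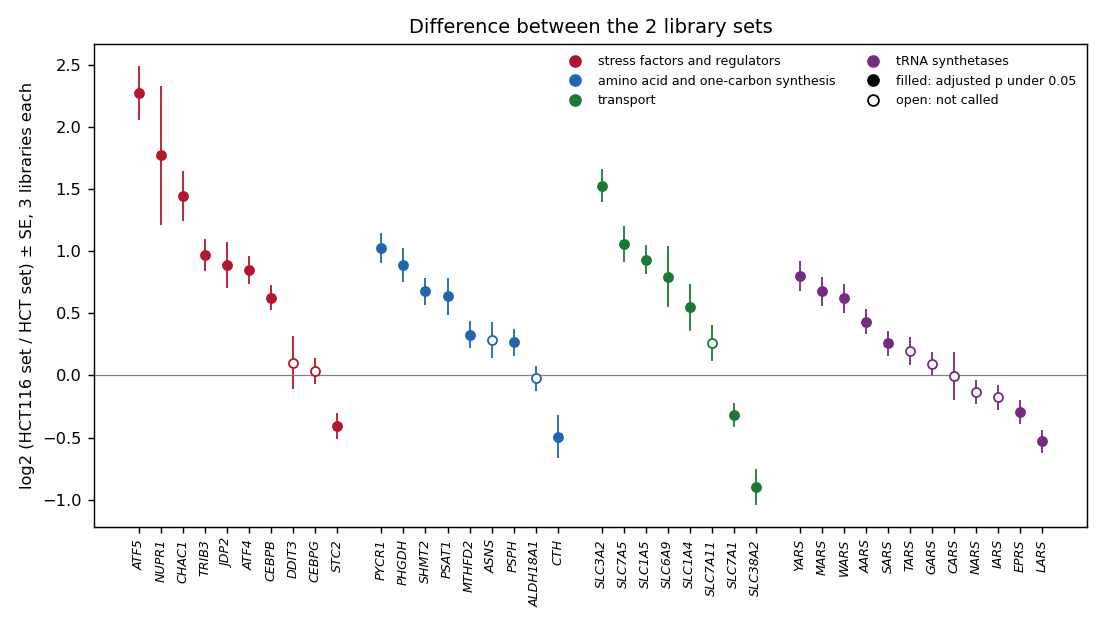
Log2 difference (± SE, 3 libraries per set, edgeR with the group as a term) between the HCT116 and HCT libraries for the 39 tested genes, grouped by role and ordered by size, filled where the adjusted p was under 0.05. ATF5 leads at 2.27, SLC38A2 is lowest at −0.89, and 23 genes are called higher and 6 lower.

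The guide calls of genes with and without the motif are given side by side, with no test of the difference. Of the 15 with the motif, 0 were called in KO1 and 0 in KO2 by edgeR, with medians of −0.16 and 0.08. Of the 17 tested genes with a promoter but no motif, TRIB3 was called in KO1 and EPRS and SLC7A5 in KO2, with medians of −0.08 and −0.12. CHAC1 was the 1 motif gene called between KO2 and KO1. Between the sets, 8 of the 15 motif genes and 15 of the 17 others were called, beside 63.9% of all tested genes.

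Other genes of the pathway were counted from lists kept apart from the 40. Of 16 sensors and eIF2 control genes, 0 were called in KO1, with 0 at an unadjusted p under 0.05. In KO2 1 of them (6.25%) was called, where 4.61% of all tested genes were. This was EIF2AK2 (PKR, the double-stranded RNA sensor kinase), which rose by 0.65 ± 0.15 (log2, SE, n = 2, edgeR adjusted p 0.0335). Its level went from 85.0 and 64.4 CPM in WT to 149.9 and 88.9. The other eIF2 kinases EIF2AK1, EIF2AK3 and EIF2AK4 were not called with either guide. Of 10 other ATF4 targets tested, 0 were called in KO1 (2 at an unadjusted p under 0.05) and 3 in KO2, where 4.61% of all tested genes were. ATF3, a stress-induced factor, was at 13.4 and 11.3 CPM in WT and 26.3 and 18.9 in KO1, and its difference of 0.86 ± 0.20 (log2, SE, n = 2) had an edgeR adjusted p of 0.0807. In KO2, 2 genes rose, ATF3 (0.79, edgeR adjusted p 0.0472) and HERPUD1, an endoplasmic reticulum stress gene (0.54, edgeR adjusted p 0.0395). DDIT4, a brake on mTORC1, fell by 0.89 on the log2 scale (edgeR adjusted p 0.0350), with 319.7 and 150.0 CPM in WT libraries and 117 in each KO2 one.

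Of 10 other cytosolic synthetases and their scaffolds, 0 were called with either guide by edgeR, and 0 had an unadjusted p under 0.05. Of 15 mitochondrial synthetases 0 were called with either guide, with 0 and 2 at an unadjusted p under 0.05. Of 13 other amino acid and one-carbon enzymes 1 (7.69%) was called in KO2, where 4.61% of all tested genes were. This was ASS1, the argininosuccinate synthase, which rose (0.71, edgeR adjusted p 0.0227). Of 11 other amino acid transporters, 1 was called higher and 1 lower in KO2 (18.2%, beside the same 4.61%). SLC7A8, which like SLC7A5 pairs with SLC3A2, rose in KO2 (0.999 ± 0.21, edgeR adjusted p 0.0213). SLC1A3, a glutamate and aspartate transporter, fell 6.17-fold, with 66.6 and 38.5 CPM in WT libraries and 11.1 and 6.01 in KO2 ones (−2.63 ± 0.16, SE, n = 2, edgeR adjusted p 1.09e-05). Of 12 chaperones and folding enzymes of the endoplasmic reticulum 1 (8.33%) was called in KO2, beside the same 4.61%. This was DNAJB9, which rose (0.79, edgeR adjusted p 0.0316). Between the sets, the 10 other ATF4 targets had a median of −0.21, with 2 called higher and 4 lower. The other cytosolic synthetases had a median of 0.31 there, the mitochondrial ones of 0.30, and the other transporters of −0.53. It was 0.19 for the sensors and eIF2 control genes, 0.02 for the other enzymes and −0.01 for the chaperones and folding enzymes. KO2 was also the group with the highest mitochondrial share of counts, 8.90% (HCT) and 6.95% (HCT116), and its part in these values was not tested.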

How the data were processed

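Poly(A) RNA was sequenced from 6 HCT116 libraries (WT, KO1 and KO2, 2 each), per the labels' protocols. The authors deposited raw read counts per gene, per the file headers. Tools named without a role in the submitters' processing notes are HTSeq 0.6.0, STAR and DESeq2, and the build named is hg18. No source used here gives the strand setting. The authors' own log2 fold changes and p-values are also deposited. The tables share 15284 genes, and 264 and 429 genes listed in 1 table only, with 0 WT reads, were left out. Another 40 columns of per-sample values, the authors' FPKM among them, were not used, so the levels of different genes are not ranked.

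Counts were tested with edgeR 4.0.16 in R 4.3.3 (TMM, filterByExpr with a minimum count of 10, glmQLFTest, Benjamini-Hochberg adjustment at 0.05 over 12678 genes) on all 6 libraries, with group and set (the name prefix) as terms. This leaves 2 residual degrees of freedom, and 3 without the set. Column names carry no replicate numbers. The block was chosen because the members are compared within a prefix and the series' design text lists the WT libraries by the 2 prefixes. In the same counts that were tested, libraries with the same prefix deviated together from their group means. The correlations across genes were 0.867, 0.815 and 0.783 between pairs of groups. SE is the size of the log2 change over the root of the F statistic. Within-set ratios have 95% exact (Clopper-Pearson) intervals that cover counting error only. The 2 libraries of a group differed by more than counting noise (chi-square per degree of freedom of 91.5 to 142). Gene order came from GENCODE on GRCh38 and served for order only, since the counts are labelled hg18. Values per library are given for ATF4, DDIT3, TRIB3, CHAC1, ASNS, each member called in a guide comparison and the smallest p of each role there, and for the sets up to 2 called members per direction and role. From the other lists, called genes are named. A few further genes were named after their values were seen. The members, lists and rules were chosen with earlier results of these data known. Alternatives were DESeq2 size factors, no filter, DESeq2 1.42.0, limma-voom (limma 3.58.1), no block, and each library left out. The fit was also run on counts simulated from the same blocked fit. That run cannot check the choice of block, and no result here rests on it.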

Additional observations from a re-analysis of the deposited data

Results flagged for a closer look

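The effects of the guides differed for 4 genes, by edgeR's test of KO2 against KO1 with the set as a block. These are 10.3% of the 39, near the 9.62% of all tested genes, and without the HCT library of KO1 only the EPRS call was kept. The log2 difference was 0.83 for TRIB3, 1.27 for CHAC1, −0.64 for SLC7A5 and −0.90 for EPRS.

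For 11 genes the KO2 library was on opposite sides of its WT library in the 2 sets, beyond counting error in each, as it was for 10.7% of all tested genes. Libraries of a group differed by far more than counting error, and genes with more reads meet this rule more easily. The difference between the sets was not tested, since each set has 1 library per group. The log2 ratio in the HCT and HCT116 sets was 0.22 and −0.20 for ATF4, 0.22 and −0.27 for TRIB3, and 0.48 and −0.38 for JDP2, an AP-1 repressor. Among synthesis enzymes it was 0.28 and −0.53 for ASNS, 0.14 and −0.69 for PSAT1, and 0.087 and −0.47 for PYCR1. Among transporters it was 0.24 and −0.25 for SLC1A5 and −0.54 and 0.29 for SLC38A2. Among synthetases it was 0.090 and −0.18 for IARS, 0.36 and −0.15 for MARS, and 0.23 and −0.36 for YARS. SLC38A2 was the only one of the 11 that was lower in the HCT set and higher in the HCT116 set.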

How the results depend on the processing

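All guide calls need the set as a block. Without it, edgeR called 0 members and 0 genes in KO1 against WT, KO2 against WT and KO2 against KO1 (173, 309 and 513 genes at an unadjusted p under 0.05). With the block, DESeq2 size factors, DESeq2 and limma-voom gave 1, 2 and 4 members, as edgeR did, and with no filter 4 members were called in KO2 against WT. Over all genes, KO1 against WT gave 130 calls, 316 with no filter and 205 with DESeq2, and KO2 against WT gave 585, and 949 with no filter. The cause of these differences was not tested.

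Leaving out 1 library at a time gave 0 to 6 members and 69 to 901 genes in KO1 against WT, 1 to 11 members and 317 to 2170 genes in KO2 against WT, 1 to 17 members and 391 to 3202 genes in KO2 against KO1, and 19 to 32 members and 6481 to 8754 genes between the sets. In KO1 against WT, 6 members were called without either KO2 library, 3 without the HCT library of WT, and 0 without either KO1 library or the HCT116 library of WT. In KO2 against WT, 9 and 11 were called without the HCT and HCT116 libraries of KO2, but 1 when the WT library of the HCT116 set was left out. In KO2 against KO1, 8 and 17 were called without the HCT and HCT116 libraries of KO2, and 1 without the HCT library of KO1. Between the sets, 19 were called without either KO1 library. A group left with 1 library is assumed to vary like the others.

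The directions that turned belong to values that were not called. DDIT3 in KO1 was −0.0041 with DESeq2 size factors and −0.0021 with DESeq2. ATF4 in KO2 was −0.018 with each of these and −0.044 without the block. Over the libraries left out, KO1 values ran from −0.19 to 0.036 for ATF4, −0.22 to 0.27 for DDIT3, −0.50 to 0.026 for YARS, −0.49 to 0.051 for SLC7A5 and −0.15 to 0.0017 for ALDH18A1. KO2 values ran from −0.19 to 0.21 for ATF4, −0.27 to 0.22 for TRIB3, −0.51 to 0.26 for ASNS, −0.20 to 0.19 for SLC1A5 and −0.33 to 0.20 for YARS. KO2 against KO1 ran from −0.34 to 0.20 for PHGDH, −0.11 to 0.32 for ATF4 and −0.0094 to 0.37 for YARS. With 2 libraries per group, the intervals of members not called leave room for changes, and a missed threshold does not show equal levels.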
